A study of Mus musculus with 24 samples.

Results

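The 35 genes described here are characteristic of endothelium, the cell layer that lines blood vessels, and were followed in thoracic aortas of mice fed celecoxib, rofecoxib or plain chow. They were taken by symbol from a count table of 25941 genes, each symbol was carried by 1 row, and all 35 passed the filter on low counts. They fall into 6 role groups. These are 5 junction and adhesion genes, 10 surface receptors and 4 genes grouped as secreted or intracellular, which include the membrane protein Myct1. The others are 6 transcription factors, 8 arterial and Notch genes and 2 capillary genes. No measured value entered the choice, but the genes were proposed with earlier results of these data known.

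Endothelial cells hold to one another through Cdh5 (VE-cadherin), Pecam1 (CD31) and the tight junction protein Cldn5. Their identity is set by transcription factors of the ETS family (Erg, Fli1), the SoxF family (Sox7, Sox17, Sox18) and the Tal1 and Lmo2 complex. In arteries Dll4 signals through Notch1 to targets such as Hey1, and in capillaries Gpihbp1 holds lipoprotein lipase at the vessel wall.

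All mice were wildtype C57BL/6 males aged 10 to 12 weeks, with 8 libraries per group and 24 in all. For 3 weeks the celecoxib group received 100 mg/kg/day in chow, the rofecoxib group received 50 mg/kg/day in chow, and the control group ate chow with no drug added. Every animal, controls included, was injected intraperitoneally with interleukin-1β (10 ug/kg) 4 h before its aorta was collected at zeitgeber time 11, so the response to the cytokine itself was not measured. Both drugs inhibit cyclooxygenase-2; their doses differed, so differences between them hold for these doses only. RNA came from the whole vessel, in which endothelium is a thin layer.

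The promoters of 4 members are shown because 3 of them (Myct1, Clec14a, Bmx) had similar differences from control in both drug groups and the fourth (Robo4) did not. Each is the 250 bases before the gene's start, 5′ to 3′ on the gene's strand, from RefSeq on build GRCm38.p6; the count table itself is on mm9. Capitals mark GGAAG or its reverse complement CTTCC, the letters searched for ETS factors.
Myct1 promoter (chr10:5593478-5593727, plus strand): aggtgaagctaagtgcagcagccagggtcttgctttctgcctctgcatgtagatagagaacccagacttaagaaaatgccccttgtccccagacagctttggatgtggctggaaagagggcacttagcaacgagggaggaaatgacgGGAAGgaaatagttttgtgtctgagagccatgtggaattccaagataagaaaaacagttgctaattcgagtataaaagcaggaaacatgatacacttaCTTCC
Clec14a promoter (chr12:58269259-58269508, minus strand): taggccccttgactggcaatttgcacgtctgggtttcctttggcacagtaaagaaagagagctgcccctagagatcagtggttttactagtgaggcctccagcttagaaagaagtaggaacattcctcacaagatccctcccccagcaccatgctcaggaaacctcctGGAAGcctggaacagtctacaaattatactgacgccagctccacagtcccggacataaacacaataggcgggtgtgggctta
Bmx promoter (chrX:164258194-164258443, minus strand): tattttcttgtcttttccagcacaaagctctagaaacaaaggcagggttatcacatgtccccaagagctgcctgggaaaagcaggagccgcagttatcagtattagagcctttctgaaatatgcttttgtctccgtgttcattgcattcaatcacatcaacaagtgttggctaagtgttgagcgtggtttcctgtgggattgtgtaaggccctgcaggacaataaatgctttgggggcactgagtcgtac
Robo4 promoter (chr9:37401722-37401971, plus strand): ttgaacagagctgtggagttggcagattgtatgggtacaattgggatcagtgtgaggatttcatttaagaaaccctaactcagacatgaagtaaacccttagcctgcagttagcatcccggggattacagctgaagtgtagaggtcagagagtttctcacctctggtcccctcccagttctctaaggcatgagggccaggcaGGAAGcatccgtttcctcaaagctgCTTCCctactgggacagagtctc
RefSeq promoters were matched for 18 of the 35 genes, in 23 windows. GGAAG, on either strand, was in 16 of the 23 windows, belonging to 14 genes, and in 64.1% of all 32851 promoters of the same length. ACAAT, the letters searched for SOX factors, was in 6 of the 23 windows and in 27.7% of all promoters, on either strand. AGATAA, for GATA factors, was in 3 of the 23 windows against 9.99% of all promoters, and TAAACA, for forkhead factors, in 1 window against 12.0%. The Myct1 and Robo4 windows each held 2 GGAAG matches and the Clec14a window held 1. The Bmx window held none, and both Bmx and Robo4 held 2 ACAAT matches. The motifs were searched separately, so matches of different motifs could overlap, and a match describes the letters and not a bound site.

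Each library held between 21668798 and 21700121 counted reads. Levels are given in CPM, the reads of a gene scaled to a common library size and composition, and 1 CPM was about 21.68 reads. The sparsest member value was 31 reads, for Hey1 in control replicate 6, and 34 of the 35 members had a median of at least 100 reads per library. Several libraries stood apart across the whole set. In rofecoxib replicate 8, 28 of the 35 genes were below their control mean, with a median difference of -0.38 (log2), and 9 genes had their lowest value of all 24 libraries there. Rofecoxib replicates 2, 5 and 7 lay at the other end, at 0.62, 0.56 and 0.50, and held the highest value of 9, 8 and 9 genes. Celecoxib ran from -0.31 in replicate 2 to 0.43 in replicate 7, and control from -0.29 in replicate 8 to 0.19 in replicate 3.

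**Figure D1:**
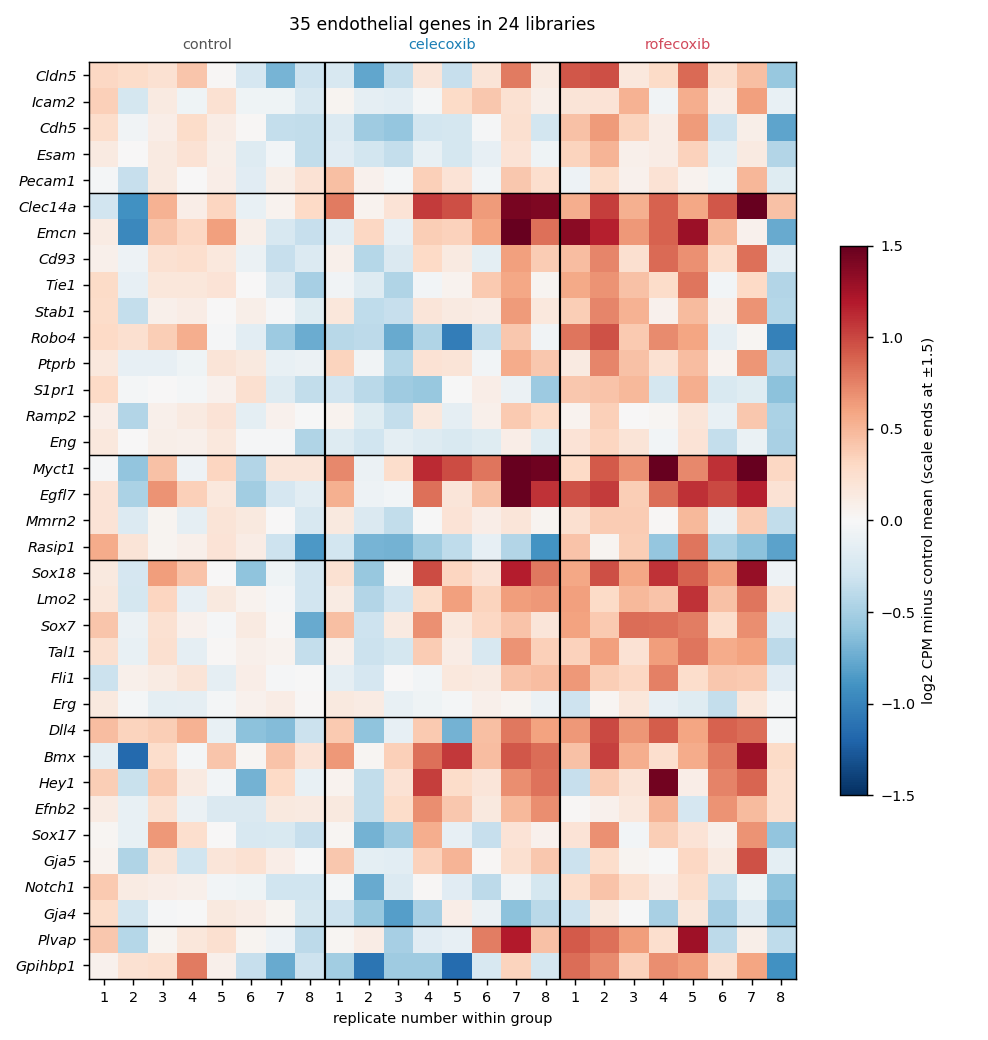
Heat map of the 35 endothelial genes (rows, by role group) in the 24 libraries (columns, by replicate number within group), coloured by log2 CPM minus the control mean, with the colour scale ending at ±1.5. Rofecoxib replicate 8 is below the control mean in 28 genes, and rofecoxib replicate 2 is above it in all 35.

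The labelled tissue carried its endothelial markers in every library. Pecam1, an adhesion molecule of endothelial junctions and platelets, lay between 226 and 336 CPM in control aortas, with a median of 297. Cdh5, the adherens junction cadherin of endothelium, lay between 99.5 and 156 CPM in controls, with a median of 134. Per kilobase of exon, which allows genes to be compared, Pecam1 was the highest of the 35 at 70.2 ± 8.52 CPM per kb (SD, n = 8) and Cdh5 was 4th at 32.5 ± 5.39. Eng, a TGF-β co-receptor, was 2nd at 43.8 ± 5.31, and S1pr1, the sphingosine-1-phosphate receptor, 3rd at 38.6 ± 5.72, a gap smaller than either SD. The Notch target Hey1 was the lowest at 1.08 ± 0.27 CPM per kb, 65.1 times below Pecam1, and Tal1, Dll4, Myct1 and Clec14a stood just above it between 1.36 and 1.79. Neighbours in this order mostly differed by less than their SD. Among control libraries the SD ran from 7.46% of the mean for the ETS factor Erg to 32.8% for Gpihbp1, with a median of 16.0% over the 35 genes.

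**Figure D2:**
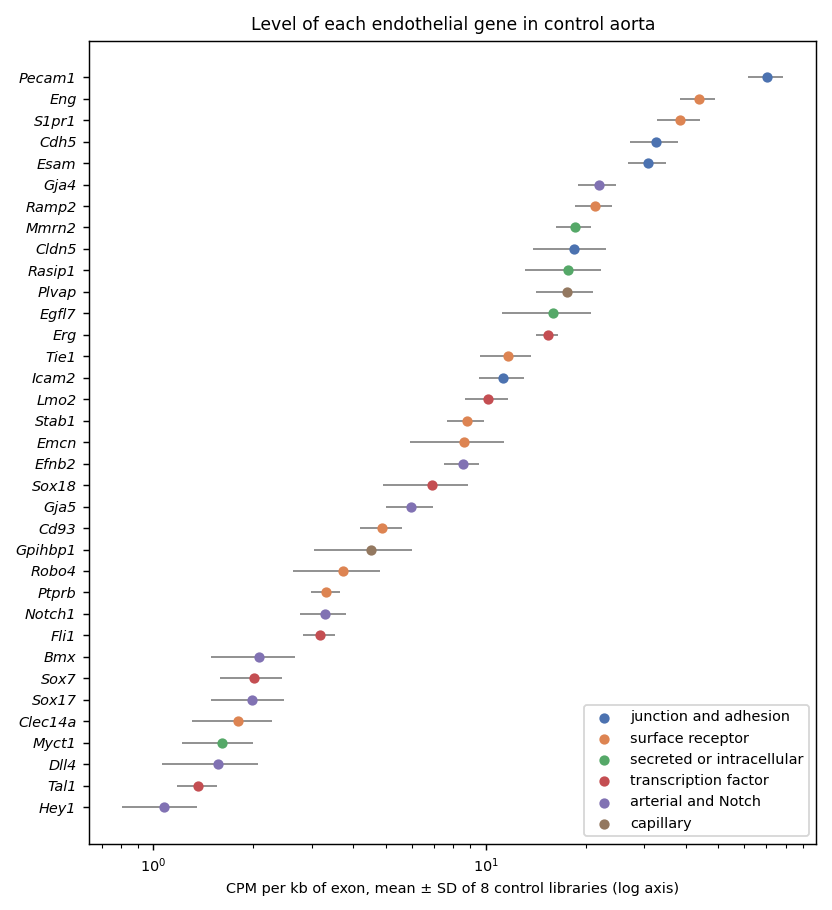
Level of each of the 35 genes in control aorta, in CPM per kilobase of exon on a log axis; points are means and lines the SD of 8 control libraries, coloured by role group. Pecam1 (70.2) is highest and Hey1 (1.08) lowest, and adjacent genes mostly overlap within their SD.

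The first comparison asked which endothelial genes differed between rofecoxib and control aortas. With rofecoxib 9 of the 35 genes rose and none fell (edgeR quasi-likelihood test, adjusted p under 0.05 over all 14528 genes tested). They were the surface receptors Clec14a and Cd93, and Myct1 and Egfl7 of the secreted or intracellular group. The others were the transcription factors Sox18, Lmo2, Sox7 and Fli1, and the arterial kinase gene Bmx. Log2 fold changes of the 9 genes ran from 0.39 to 0.99. Over all genes tested 3.88% were called higher and 3.06% lower. At an unadjusted p under 0.05, 18 of the 35 were higher, where 16.4% of all genes were higher and 11.8% lower, and no member was lower. The fold change was above 0 for 32 of the 35 genes with a median of 0.34 (log2), beside a median of 0.02 over all genes tested. In RNA from a whole vessel, more endothelial cells and more RNA per endothelial cell cannot be told apart. Nor can a changed share of RNA from other cells, or reads of these genes from such cells.

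Markers of other cell types moved with the rofecoxib group. Of 15 general adipocyte genes, all tested and read in every library, 14 had a fold change above 0 and 3 rose; their summed level was 2389.5 to 6824 CPM in control, 2146 to 4472 CPM in celecoxib and 2465 to 8358 CPM in rofecoxib libraries. All 12 smooth muscle genes had a fold change below 0 and 1 fell; their summed level was 32499 to 43532 CPM in control, 35716 to 50334 CPM in celecoxib and 31454 to 46837 CPM in rofecoxib libraries. The 35 endothelial genes summed to 1354 to 1738 CPM in control, 1279 to 2025 CPM in celecoxib and 1195 to 2136 CPM in rofecoxib libraries. With each library's general adipocyte level as a covariate none of the 35 genes was called and their median was 0.14. With the smooth muscle level none was called and the median was 0.08. Calls over all genes tested fell from 1008 to 49 under the adipocyte covariate and to 21 under the smooth muscle covariate. The adipocyte level averaged 6.65 (log2 CPM) in control and 7.38 in rofecoxib libraries, and the smooth muscle level 10.27 and 10.07. Each covariate thus differed between the groups, and its part cannot be told apart from that of the drug. Under the adipocyte covariate the 9 genes called without it stood at 0.83 for Myct1, 0.66 for Clec14a, 0.63 for Bmx, 0.51 for Lmo2, 0.49 for Egfl7, 0.43 for Sox18, 0.31 for Sox7, 0.26 for Cd93 and 0.23 for Fli1, with adjusted p from 0.156 to 0.337 by edgeR. Under the smooth muscle covariate they stood at 0.75 for Myct1, 0.555 for Clec14a, 0.48 for Bmx, 0.41 for Egfl7, 0.41 for Sox7, 0.39 for Sox18, 0.35 for Lmo2, 0.26 for Cd93 and 0.17 for Fli1, with adjusted p from 0.295 to 0.553 by edgeR.

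**Figure D3:**
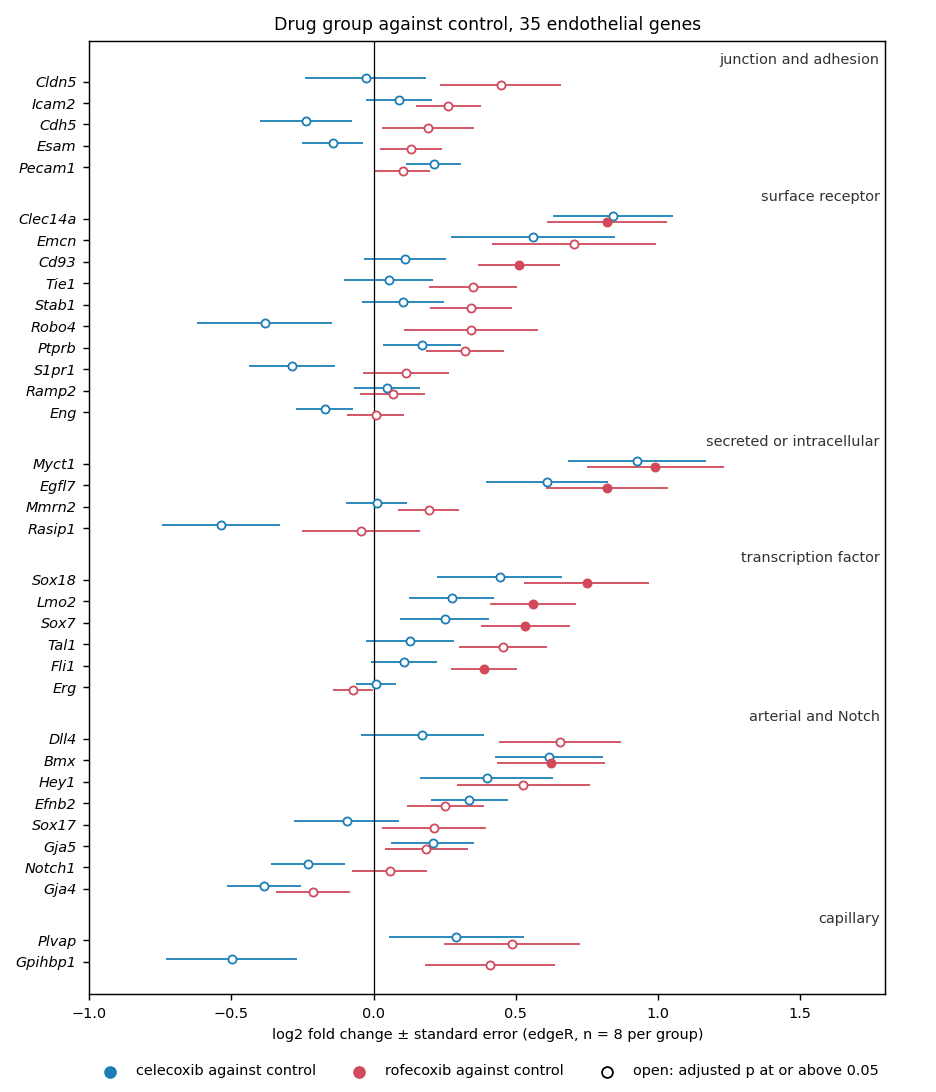
Log2 fold change against control (x axis) of the 35 genes, by role group, for celecoxib (blue) and rofecoxib (red); lines are ± 1 standard error and filled points have an adjusted p under 0.05 (edgeR, n = 8 per group). The 9 filled points are all rofecoxib points above 0, and Clec14a, Myct1 and Bmx have nearly the same fold change with both drugs.

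Among the 10 surface receptors 2 rose with rofecoxib, and all 10 had a fold change above 0 with a median of 0.34. Clec14a encodes an endothelial C-type lectin involved in vessel sprouting (mm9 chr12:59365505-59370447). Its level was 4.18 to 11.3 CPM (median 8.33) in control, 8.18 to 21.4 CPM (median 14.5) in celecoxib and 10.7 to 24.2 CPM (median 13.3) in rofecoxib libraries. All 8 rofecoxib libraries were above the control median and 7 were above the highest control. The log2 fold change was 0.82 (SE 0.21, adjusted p = 0.0249 by edgeR). Cd93, a related lectin-like receptor that binds the matrix protein Mmrn2 (chr2:148262174-148269501), had 25.4 to 38.5 CPM (median 32.3) in control, 24.1 to 49.5 CPM (median 34.9) in celecoxib and 29.4 to 58.2 CPM (median 48.3) in rofecoxib. Of the rofecoxib libraries 6 exceeded every control, and replicate 8, the lowest, lay inside the control range. Cd93 rose by 0.51 (log2, SE 0.14, adjusted p = 0.0350 by edgeR). The other 8 receptors, Tie1, Eng, Emcn, Robo4, Ramp2, Stab1, S1pr1 and Ptprb, ran from 0.01 for Eng to 0.71 for Emcn and none passed the test.

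Of the 4 genes grouped as secreted or intracellular 2 rose with rofecoxib. Myct1, an endothelial membrane protein and target of the ETS factor ETV2 (chr10:4739552-4753015), had 2.91 to 6.09 CPM (median 4.72) in control, 4.19 to 13.7 CPM (median 8.36) in celecoxib and 5.51 to 15.5 CPM (median 7.94) in rofecoxib. It was above the highest control in 6 of 8 rofecoxib and in 6 of 8 celecoxib libraries, so both drug groups overlapped the controls in 2 libraries each. Its rise with rofecoxib, 0.99 (log2, SE 0.24, adjusted p = 0.0213 by edgeR), is a 1.99-fold higher level and was the largest of the 35. Egfl7, a secreted factor that shapes vessel tubes and hosts a microRNA (chr2:26435332-26448842), had 20.2 to 46.0 CPM (median 29.1) in control, 27.4 to 83.2 CPM (median 40.6) in celecoxib and 33.6 to 64.9 CPM (median 57.0) in rofecoxib. All 8 rofecoxib libraries lay above the control median and 6 above every control, and the fold change was 0.82 (SE 0.21, adjusted p = 0.0265 by edgeR). Egfl7 overlaps the row of Agpat2, a lipid synthesis gene of fat, whose own difference was 0.72 (adjusted p = 0.109 by edgeR); with the strand setting not given in the sources used here, their reads cannot be told apart. Mmrn2 and Rasip1, a regulator of vessel lumen formation, were at 0.19 and -0.04 and did not pass.

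The 6 transcription factors held 4 of the 9 genes that rose. Sox18 (chr2:181404339-181406547) had 7.08 to 16.7 CPM (median 10.6) in control, 7.25 to 24.5 CPM (median 13.1) in celecoxib and 10.2 to 26.7 CPM (median 18.3) in rofecoxib. It rose by 0.75 (log2, SE 0.22, adjusted p = 0.0411 by edgeR), with 7 of 8 rofecoxib libraries above the control median and replicate 8 just below it. Sox7, of the same SoxF family (chr14:64562309-64569771), had 3.81 to 8.69 CPM (median 6.68) in control, 5.21 to 10.4 CPM (median 7.71) in celecoxib and 5.62 to 11.7 CPM (median 10.2) in rofecoxib. Its fold change was 0.53 (SE 0.16, adjusted p = 0.0411 by edgeR), and 5 rofecoxib libraries exceeded every control.

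Lmo2, a bridging protein of the Tal1 complex (chr2:103797941-103822237), had 15.6 to 23.9 CPM (median 19.3) in control, 14.02 to 30.1 CPM (median 23.7) in celecoxib and 22.4 to 40.8 CPM (median 26.4) in rofecoxib. Every rofecoxib library was above the control median and 6 were above every control; Lmo2 rose by 0.56 (log2, SE 0.15, adjusted p = 0.0289 by edgeR). Fli1, an ETS factor (chr9:32229591-32349176), had 8.36 to 12.0 CPM (median 10.8) in control, 8.81 to 14.4 CPM (median 11.01) in celecoxib and 9.32 to 17.8 CPM (median 13.7) in rofecoxib. Rofecoxib replicate 8 alone lay within the control range, and Fli1 rose by 0.39 (log2, SE 0.12, adjusted p = 0.0432 by edgeR), the smallest of the 9 rises. Tal1, the partner of Lmo2, stood at 0.45 (SE 0.15, adjusted p = 0.0668 by edgeR) and did not pass. Erg, the other ETS factor and the least variable member, is singled out here after its values were seen. It had 48.0 to 58.8 CPM in control, 49.0 to 58.6 CPM in celecoxib and 41.4 to 59.7 CPM in rofecoxib, and its difference with rofecoxib was -0.07 (95% interval -0.22 to 0.07). Of the 8 rofecoxib libraries 3 lay below every control and 2 above, while all 8 celecoxib libraries lay within the control range.

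**Figure D4:**
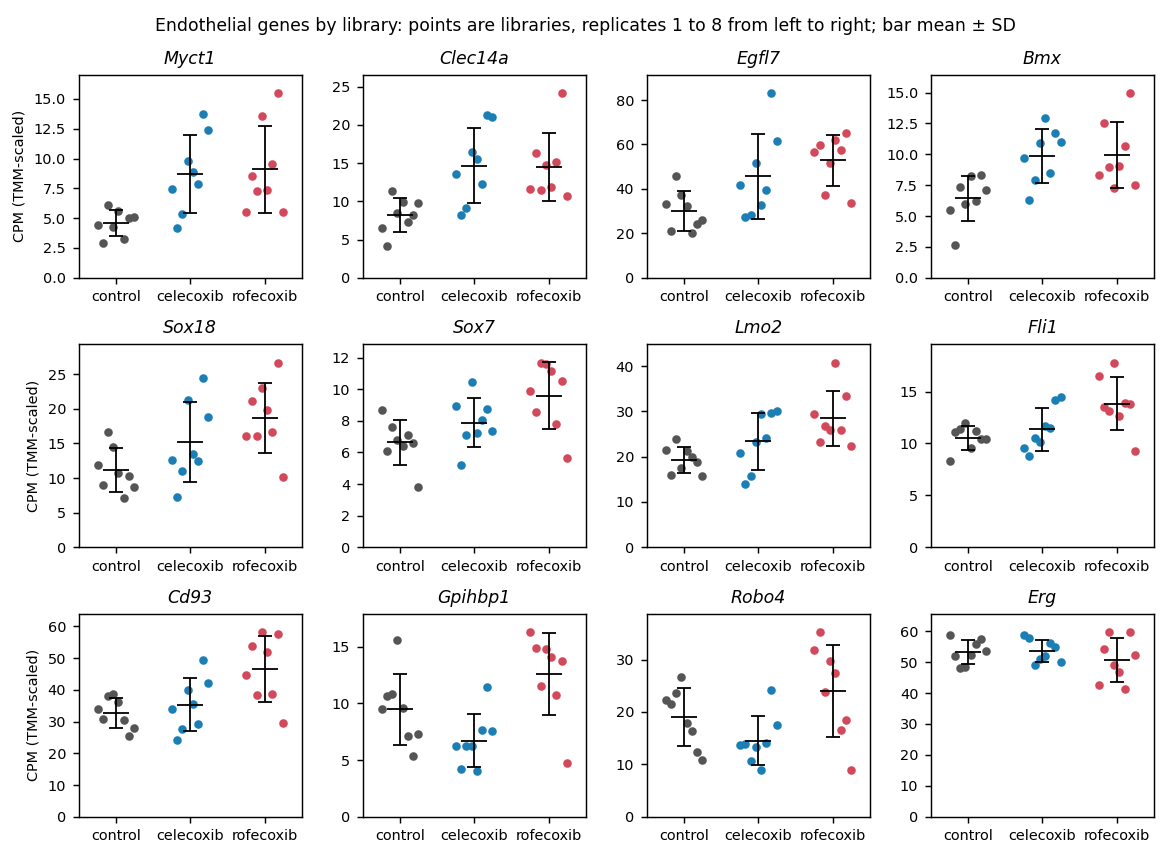
Level in CPM of 12 endothelial genes in each library; points are libraries in order of replicate number, and bars are the mean ± SD of 8. Myct1, Clec14a and Bmx are higher in most libraries of both drug groups than in controls, Gpihbp1 and Robo4 are lower in most celecoxib than in most rofecoxib libraries, and Erg overlaps in all 3 groups.

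Among the 8 arterial and Notch genes 1 rose with rofecoxib. Bmx, a TEC-family tyrosine kinase of arterial endothelium (chrX:160630572-160696327), had 2.67 to 8.29 CPM (median 6.66) in control, 6.28 to 12.9 CPM (median 10.3) in celecoxib and 7.31 to 14.97 CPM (median 9.02) in rofecoxib. All 8 rofecoxib libraries were above the control median and 6 above every control. Bmx rose by 0.63 (log2, SE 0.19, adjusted p = 0.0468 by edgeR). Dll4, the arterial Notch ligand, had 5.85 ± 1.87 CPM in control and 9.21 ± 1.79 CPM in rofecoxib (SD, n = 8), a difference of 0.65 (SE 0.21, adjusted p = 0.0606 by edgeR) that did not pass although 7 rofecoxib libraries exceeded every control. Gja4, the gap junction protein connexin 37, was one of the 3 members below 0, at -0.21 (SE 0.13, adjusted p = 0.278 by edgeR). The others, Gja5 (connexin 40), Sox17, Efnb2 (the arterial ligand ephrin-B2), Hey1 and the receptor Notch1, ran from 0.06 to 0.53 without passing. Of 16 further Notch pathway genes tested none was called in any comparison, and with rofecoxib their median was 0.09; the smallest p was that of Nrarp, a Notch feedback inhibitor, at 0.60 (adjusted p = 0.0541 by edgeR).

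None of the 5 junction and adhesion genes passed with rofecoxib, although all 5 were above 0, with a median of 0.19. Pecam1 had 281 to 394 CPM (median 339) in celecoxib and 253 to 406 CPM (median 299) in rofecoxib libraries, overlapping the controls broadly. Its difference with rofecoxib was 0.10 (95% interval -0.10 to 0.30, adjusted p = 0.495 by edgeR). Cdh5 had 85.8 to 151 CPM (median 107) in celecoxib and 74.2 to 199.9 CPM (median 150.1) in rofecoxib libraries. The rofecoxib group held both the lowest and the highest Cdh5 value of all 24 libraries, and the difference was 0.19 (95% interval -0.14 to 0.52, adjusted p = 0.439 by edgeR). Esam, a junctional adhesion molecule, and Icam2, a leukocyte ligand, stood at 0.13 and 0.26, and Cldn5 at 0.45. Myct1, Clec14a and Egfl7 passed the test where Pecam1 and Cdh5 did not; whether the fold changes of these genes differed from each other was not tested.

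Of the 2 capillary genes neither passed with rofecoxib. Gpihbp1, the lipoprotein lipase anchor of capillaries (chr15:75426886-75428844), had 5.33 to 15.6 CPM (median 9.52) in control, 4.01 to 11.4 CPM (median 6.25) in celecoxib and 4.77 to 16.3 CPM (median 13.9) in rofecoxib. It was above the control median in 7 of 8 rofecoxib libraries and in 1 of 8 celecoxib libraries. The difference with rofecoxib was 0.41 (SE 0.23, adjusted p = 0.238 by edgeR). Plvap, the diaphragm protein of fenestrated and other permeable vessels, stood at 0.49 (SE 0.24, adjusted p = 0.181 by edgeR), and its row overlaps that of Gtpbp3.

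With celecoxib no member was called against control by edgeR, where 0.0344% of all genes tested were called in either direction. At an unadjusted p under 0.05, 6 of the 35 were higher and 3 lower, beside 7.72% and 5.83% of all genes. DESeq2 called 2 members higher, Clec14a and Myct1, where it called 0.768% of all genes, and limma voom called 1, Clec14a, where it called 0.833%. The fold change was above 0 for 24 of the 35, with a median of 0.11 (log2) beside 0.00 over all genes. The same 8 control libraries served both drug comparisons.

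Clec14a and Myct1 had the smallest p-values with celecoxib. Clec14a stood at 0.84 (SE 0.21, 95% interval 0.40 to 1.28, adjusted p = 0.133 by edgeR) and was above every control in 6 of 8 libraries. Myct1 stood at 0.93 (SE 0.24, 95% interval 0.43 to 1.42, adjusted p = 0.148 by edgeR), a ratio of 1.90. Bmx followed at 0.62 (SE 0.19, adjusted p = 0.197 by edgeR), with 6 of 8 libraries above every control, and Egfl7 at 0.61 (SE 0.21, adjusted p = 0.237 by edgeR). All 9 genes that rose with rofecoxib were above 0 with celecoxib, from 0.11 for Fli1 to 0.93. Both fold changes were taken against the same 8 control libraries, so this agreement in sign is partly built in. The 3 members lower at an unadjusted p under 0.05 were Rasip1, Gja4 and Gpihbp1. Rasip1 had 56.7 ± 14.7 CPM in control and 39.1 ± 6.90 CPM in celecoxib (SD, n = 8), a difference of -0.54 (SE 0.21, adjusted p = 0.271 by edgeR). Gja4 stood at -0.39 (SE 0.13, adjusted p = 0.221 by edgeR), with 6 of 8 celecoxib libraries below the lowest control, and Gpihbp1 at -0.50 (SE 0.23, adjusted p = 0.348 by edgeR). Pecam1 stood at 0.21 (95% interval 0.01 to 0.41, adjusted p = 0.341) and Cdh5 at -0.24 (95% interval -0.57 to 0.10, adjusted p = 0.524), by edgeR.

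Compared directly at these unequal doses, 1 of the 35 genes was lower with celecoxib than with rofecoxib and none was higher, beside 4.32% of all genes lower and 0.564% higher. That gene was Gpihbp1, at -0.91 (log2, SE 0.23, 95% interval -1.39 to -0.43, adjusted p = 0.0372 by edgeR), a level 1.88 times higher with rofecoxib. The call was lost with no filter on low counts (adjusted p = 0.0581), with only the compared groups (0.0615), with the replicate block (0.0627) and in replicates 5 to 8 alone (0.839), all by edgeR. With the adipocyte and smooth muscle levels as covariates Gpihbp1 was not called either, at -0.15 and -0.30 (adjusted p = 0.995 and 0.915 by edgeR). Each of these covariate fits called 0 of all genes between the drugs. Robo4, an endothelial guidance receptor, had 10.8 to 26.7 CPM (median 19.7) in control, 8.85 to 24.2 CPM (median 13.8) in celecoxib and 8.99 to 35.2 CPM (median 25.7) in rofecoxib. It was below the control median in 7 of 8 celecoxib libraries, while 4 rofecoxib libraries exceeded every control. Its difference between the drugs was -0.73 (SE 0.24, 95% interval -1.21 to -0.24, adjusted p = 0.0655 by edgeR) and did not pass; DESeq2 called it (adjusted p = 0.0357). At an unadjusted p under 0.05, 12 members were lower with celecoxib and none higher, beside 15.1% and 7.94% of all genes. The difference was below 0 for 30 of the 35, with a median of -0.24 beside 0.01 over all genes.

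The direct difference varied by gene. For Clec14a it was 0.02 (95% interval -0.41 to 0.45), for Bmx -0.01 (95% interval -0.40 to 0.38) and for Myct1 -0.07 (95% interval -0.55 to 0.42). These intervals do not show that the drugs act alike on the 3 genes. For Cdh5 it was -0.43 (95% interval -0.76 to -0.09, adjusted p = 0.109 by edgeR) and for Rasip1 -0.49 (95% interval -0.92 to -0.06, adjusted p = 0.152 by edgeR). Of the 35 genes 9 were above 0 with rofecoxib and below 0 with celecoxib, 23 were above 0 with both and 2 were below 0 with both. In a joint test of either drug against control 5 members were called, beside 7.62% of all genes: Myct1 (adjusted p = 0.0323), Clec14a (0.0332), Gpihbp1 (0.0422), Egfl7 (0.0433) and Cd93 (0.0477), by edgeR.

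**Figure D5:**
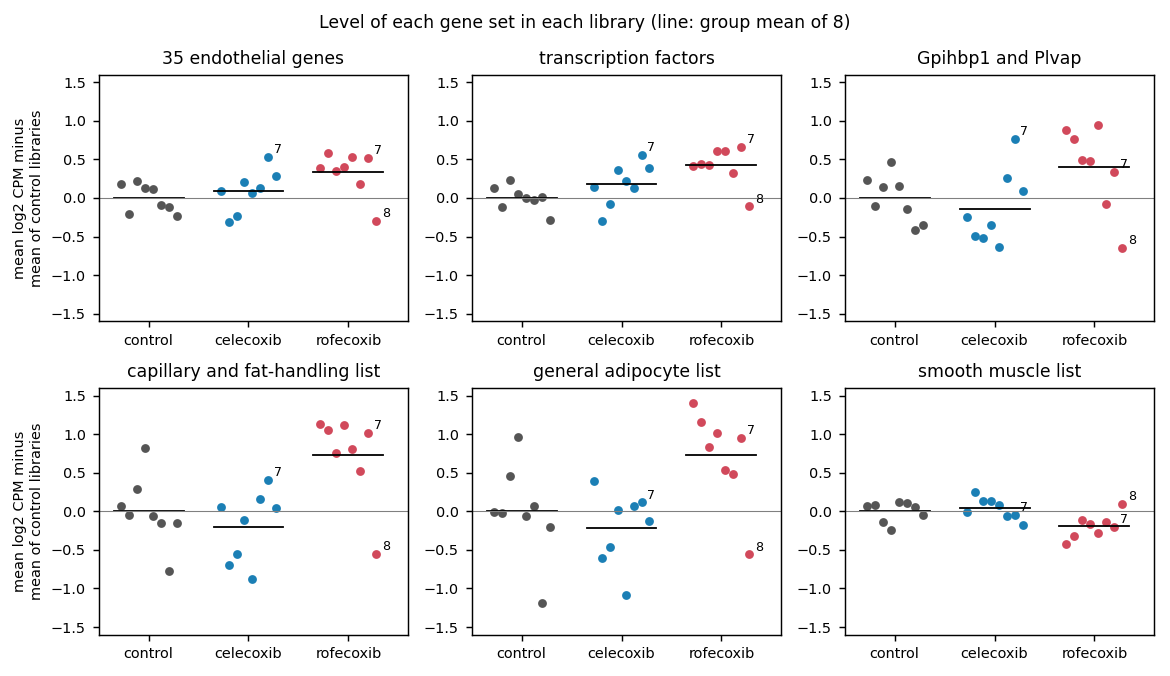
Level of 3 endothelial gene sets and 3 lists of other genes in each library. The y axis is the mean log2 CPM of the set minus its mean over control libraries. Points are libraries and lines are group means of 8. Rofecoxib replicates 7 and 8 and celecoxib replicate 7 are numbered in every panel. Rofecoxib replicate 8 is the lowest rofecoxib library in the endothelial, capillary and adipocyte panels and the highest in the smooth muscle panel.

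Genes of endothelium outside the 35 were read from lists chosen for this tissue. Of 30 other endothelial genes 5 rose with rofecoxib and 1 fell, 25 were above 0 and the median was 0.30. Tek, the angiopoietin receptor, rose by 0.49 (SE 0.11, adjusted p = 0.0174) and Elk3, an ETS factor, by 0.36 (SE 0.08, adjusted p = 0.0183), by edgeR. Kdr, the main VEGF receptor, rose by 1.09 (SE 0.29, adjusted p = 0.0285 by edgeR), and Klf2, a flow-responsive factor, fell by 0.73 (SE 0.12, adjusted p = 0.00327 by edgeR). With celecoxib none of the 30 was called and the smallest p was that of Klf2, at -0.49 (adjusted p = 0.133 by edgeR). Between the drugs 3 of the 30, Tspan18, Adgrl4 and Ushbp1, were lower with celecoxib.

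Of 11 genes of capillary endothelium and fat handling, which adipocytes also express in part, 4 rose with rofecoxib, all 11 were above 0 and the median was 0.87. They were Btnl9 (1.03), Cd36 (0.91), Aqp7 (1.19) and Fabp4 (0.87), and their adjusted p ran from 0.0306 to 0.0463 by edgeR. Between the drugs 8 of the 11 were lower with celecoxib, as were 9 of the 15 general adipocyte genes and Gpihbp1, the called member of that comparison. Whether Gpihbp1 varied with either list from library to library was not tested. With the general adipocyte level as a covariate the difference of Gpihbp1 between the drugs was -0.15 (adjusted p = 0.995 by edgeR), in a fit that called 0 of all genes. That level averaged 6.44 (log2 CPM) in celecoxib and 7.38 in rofecoxib libraries, so its part cannot be told apart from that of the drugs. Of 5 venous genes 1, the apelin receptor Aplnr, rose with rofecoxib, by 1.59 (SE 0.30, adjusted p = 0.00627 by edgeR), and of 6 lymphatic genes tested 1, Pdpn, rose by 0.56 (SE 0.16, adjusted p = 0.0359 by edgeR). The lymphatic regulator Prox1 was read in every library but did not pass the filter, and Ccl21a was at 0 reads in 21 of 24 libraries.

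Lists of other cells are given for completeness. With rofecoxib 2 of 10 fibroblast genes fell (Col1a2 and Col1a1), 1 of 12 macrophage genes rose (Mrc1) and 1 fell (Mertk). A single gene rose among 11 brown adipocyte genes (Fabp3) and among 10 Schwann cell genes (S100b), and 1 of 8 platelet and erythroid genes fell (Gp1bb). None of 6 pericyte, 7 neutrophil, 5 skeletal muscle and 1 mesothelial genes tested was called. Above 0 with rofecoxib were 11 of 12 macrophage, all 7 neutrophil, all 10 Schwann cell and all 11 brown adipocyte genes. Their median log2 fold changes were 0.36, 0.65, 1.0036 and 0.89, beside 0.34 for the 35 endothelial genes. Fibroblast, platelet and erythroid, pericyte and skeletal muscle genes had medians of 0.04, 0.10, -0.07 and -0.63. A median above 0 with rofecoxib was thus not limited to endothelial lists. Between the drugs 6 of 7 neutrophil and 6 of 10 Schwann cell genes were lower with celecoxib. So were 4 of 12 macrophage and 4 of 11 brown adipocyte genes. With celecoxib against control none of these lists held a called gene, where 0.0344% of all genes tested were called. Below 0 in that comparison were all 7 neutrophil, all 12 macrophage, 9 of 10 Schwann cell and 9 of 11 brown adipocyte genes. Their medians were -0.77, -0.19, -0.68 and -0.40. All 8 platelet and erythroid genes were also below 0, while 6 of 10 fibroblast and 4 of 6 pericyte genes were above 0. Listed at 0 in some libraries were the neutrophil markers Ly6g, Mpo and Camp, the erythroid marker Klf1, the skeletal muscle markers Myh1, Myh2, Myh4, Tnni2 and Pvalb, 4 mesothelial markers, the pericyte gene Higd1b, the macrophage gene Cx3cr1 and the Notch target Hes5. Their part in the endothelial values was not tested.

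The count of 9 genes rested on single libraries. It was 0 without rofecoxib replicate 7, where calls over all genes fell from 1008 to 383, and 15 without rofecoxib replicate 8, where they rose to 1945. Without control replicates 2, 7 or 6 it was 1, 2 and 3, without rofecoxib replicates 2 or 4 or control replicates 1 or 8 it was 4, and without control replicate 5 it was 5; calls over all genes in these 8 fits lay between 358 and 832. The fold changes moved less: with any 1 of the 24 libraries removed the 9 genes stayed at or above 0.33 (log2), while over the 13 other fits the lowest value was 0.17, for Fli1 with the smooth muscle covariate. Myct1 kept its call in 23 of the 24 fits, Clec14a and Lmo2 in 21, Egfl7 in 20, Cd93 in 16, Sox18 in 14, Sox7 in 13, Fli1 in 11 and Bmx in 10. These 24 include 8 fits without a celecoxib library, which left all rofecoxib and control libraries in place. Gpihbp1 kept its call between the drugs in 15 of the 24 fits, which include 8 without a control library. The number of members lower with celecoxib was 9 without rofecoxib replicate 8 and 3 without celecoxib replicate 7. Calls over all genes went from 710 to 1997 and 934 in these fits.

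Replicates 1 to 4 and 5 to 8 were also fitted apart. This split was known from earlier results of these data and is not given as a batch by the labels. Contrasts between the sets may therefore follow from the choice of split, and no conclusion is drawn from them. With rofecoxib the median of the 35 genes was 0.36 in replicates 1 to 4 and 0.34 in replicates 5 to 8, with 0 and 1 gene called at 4 libraries per group. With celecoxib the medians were -0.11 and 0.30, and 12 and 29 of the 35 genes were above 0. In replicates 1 to 4 Robo4 was lower with celecoxib than in controls, at -0.87 (adjusted p = 0.031 by edgeR), and in replicates 5 to 8 it stood at 0.17. Gpihbp1 likewise stood at -1.02 and 0.07, while Myct1 was at 0.60 and 1.17 and Clec14a at 0.64 and 0.9963. Between the drugs 15 members were lower with celecoxib in replicates 1 to 4, where 2073 of all genes were called in either direction. None was lower in replicates 5 to 8, where 0 of all genes were called. The calls over all genes were not split by direction, so the 15 members cannot be set beside a share of all genes lower. The medians of the members were -0.47 and -0.01. Whether the sets of replicates differ was not tested. The values of each set, the Robo4 call included, are given as a description of these libraries only.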

How the data were processed

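Thoracic aorta RNA of 24 mice was sequenced from poly(A)-selected TruSeq libraries, built over 3 days per the labels' protocols; which library was built on which day is not known here. Raw counts per gene, whole numbers in 1 table, were deposited by the authors for 25941 genes, 805 of them without a read, and all values here start from those counts. The submitters' processing notes name CASAVA 1.8.1, STAR 2.5.1b and mm9. For the counter, annotation and strand setting, as for the step that left library totals so alike (21668798 to 21700121 reads), the answer is not given in the sources used here. Overlapping genes were therefore treated as not separable. For well-read members counting error is small at this depth, and the spread between libraries limits the precision. For sparse members, such as Hey1 with 31 reads in control replicate 6, counting error is a larger part of that spread.

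Groups and replicate numbers came from the sample labels, which call the libraries biological replicates. The main test was edgeR 4.0.16 in R 4.3.3 with TMM scaling and its default expression filter, which kept 14528 genes. All 24 libraries entered 1 quasi-likelihood fit with a coefficient for every group. The test was two-sided, with Benjamini-Hochberg adjustment over all genes tested and a threshold of 0.05, and the common biological coefficient of variation was 19.6%. A joint test compared both drugs with control. CPM are TMM-scaled, log2 CPM used a prior count of 2, and lengths for CPM per kb are exon unions of GENCODE M21. Same-group libraries were compared by chi-square over genes in 84 pairs, and none agreed within sampling noise (lowest 9.00 per degree of freedom). The fits were tested on simulated counts.

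The 35 genes, their role groups and 16 other lists (184 symbols, all matched) were chosen with earlier results of these data known. Given in full are Pecam1, Cdh5, members called in any comparison and the 2 members with the smallest p in each. Other members are given by range, with values for up to 3 of each role group with the smallest p. For the other lists up to 4 called genes are named, or the 1 with the smallest p. The alternatives tried were scaling by RLE or by library size only, no filter or a filter at a mean of 1 CPM, DESeq2 1.42.0, voom of limma 3.58.1 with sample weights, and fits of only the compared groups. Further ones were the replicate number as a block, replicates 1 to 4 and 5 to 8 as a term or apart, an adipocyte or smooth muscle covariate, and removal of each library in turn.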

Additional observations from a re-analysis of the deposited data

Results flagged for a closer look

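Within each group of 8 libraries every member was examined for a library far from the other 7, and 7 of 105 combinations of gene and group stood out. Chance alone flags about 1 in 20 such combinations. Celecoxib replicate 7 accounted for 4 of them, as the highest celecoxib library. Emcn, a sialoglycoprotein of veins and capillaries, stood at 74.7 CPM there against 19.0 to 37.7 CPM in the other 7. Stab1, a scavenger receptor, stood at 108 CPM (108.38) against 53.6 to 78.8 CPM, Esam at 66.0 CPM against 44.7 to 54.7 CPM, and Eng at 165.8 CPM against 126 to 141 CPM. Rofecoxib replicate 7 stood out for Clec14a, at 24.2 CPM against 10.7 to 16.3 CPM in the other rofecoxib libraries, and for Gja5, at 65.3 CPM against 26.8 to 41.5 CPM. Control replicate 8 was the lowest control library for Eng, at 113.8 CPM against 152.8 to 173 CPM.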

How the results depend on the processing

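Under RLE size factors, library size alone and a mean of at least 1 CPM, the counts of endothelial genes called and their medians stayed within 1.5 times or 1 SD of those reported. With no filter on low counts 4 members rose with rofecoxib, none was lower with celecoxib than with rofecoxib, and the calls over all genes for celecoxib, rofecoxib and the direct comparison were 2, 557 and 0. DESeq2 called 2 members higher with celecoxib and 2 lower with celecoxib than with rofecoxib, with 107, 1797 and 1425 genes in all. Voom called 1 member with celecoxib, with 121 genes for celecoxib and 2448 for rofecoxib. With only the compared groups 45 genes were called for celecoxib and 0 genes, hence 0 members, between the drugs. The term for replicates 1 to 4 against 5 to 8 gave 1 member higher with celecoxib, 174 genes for celecoxib and 1735 for rofecoxib.

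Replicates 1 to 4 alone gave 1 member lower with celecoxib, 0 with rofecoxib and 15 between the drugs, with 9, 42 and 2073 genes and medians of -0.11 (celecoxib) and -0.47 (between the drugs). Replicates 5 to 8 alone gave 1 member with rofecoxib and 0 between the drugs, with 313, 401 and 0 genes and medians of 0.30 and -0.0097. With the adipocyte covariate 0 members were called, with 3, 49 and 0 genes and medians of 0.14 (rofecoxib) and 0.0102 (between the drugs). With the smooth muscle covariate 0 members were called, with 13, 21 and 0 genes and medians of 0.0805 and -0.0105. Medians under settings other than scaling were added after seeing the data.

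Correlations of same-numbered deviations ran from -0.303 to 0.560 and 12 of 24 were over 0.1. Differently numbered libraries were not compared in this way, so whether replicate numbers pair the libraries was not settled. With the replicate block 8 members rose with rofecoxib, 0 were called between the drugs, and 27, 1187 and 0 genes were called.

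Leaving out 1 library at a time gave 0 to 15 members higher with rofecoxib and 0 to 9 lower between the drugs, with 0 to 34, 358 to 1945 and 0 to 1997 genes called.

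Some differences that were not called changed sign. With celecoxib, replicates 5 to 8 gave Cdh5 0.0685, Gpihbp1 0.0653 and Robo4 0.17, and replicates 1 to 4 gave Cd93 -0.17, Sox18 -0.0014, Fli1 -0.13 and Lmo2 -0.10. With rofecoxib, the adipocyte and smooth muscle covariates gave Cdh5 -0.13 and -0.15, Gpihbp1 -0.16 and -0.11 and Robo4 -0.22 and -0.13. Between the drugs these covariates gave Egfl7 0.20 and 0.26, Myct1 0.13 and 0.20 and Sox18 0.10 and 0.13, and the smooth muscle covariate gave Bmx 0.16. There, replicates 5 to 8 gave Myct1 0.18, Fli1 0.0654 and Bmx 0.0678. Bmx was 0.0076 with no filter and 0.0005 by DESeq2. Clec14a was -0.0086 by library size, -0.0443 by voom, -0.0189 with the replicate block and -0.19 in replicates 1 to 4. Leaving out 1 library moved Bmx from -0.0659 to 0.10, Clec14a from -0.0766 to 0.17 and Myct1 from -0.19 to 0.0878. The cause of these changes was not tested. The doses differ between the drugs and all mice received interleukin-1β. RNA of a whole vessel does not separate cell number, RNA per cell and the share of RNA from other cells.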
